A study of Mus musculus with 4 samples.

Results

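The genes described here encode the proteins that turn a muscle membrane signal into release of stored calcium, and those that bind the calcium in its store and pump it back. The 10 members were Cacna1s, Cacng1, Ryr1, Ryr3, Jph2, Casq1, Casq2, Atp2a1, Atp2a2 and Sln, chosen by name with earlier results of these data known. Every probe set annotated to exactly 1 of them was taken, which gave 20 of the 34945 probe sets with a single gene symbol. The probe set with the highest mean signal stood for each gene. Of the 10 members, 8 had a mean signal at or above that of the median gene (179) and were among the 9097 of 18193 genes tested; Casq1 and Sln were dimmer.

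The cells were C2C12, an established line of mouse myoblasts that fuse into myotubes when serum is lowered. They were grown in DMEM with 25 mM glucose and 10% fetal bovine serum, and myogenesis was induced with 2% horse serum. All were treated during differentiation, for 48 h, with the LSD1 inhibitor tranylcypromine (TC, 1 array), the LSD1 inhibitor S2101 (1 array) or vehicle (2 arrays). LSD1 is a histone demethylase encoded by Kdm1a; the labels give no dose, so the compounds are not compared at matched doses, and they do not state whether the 4 arrays are separate cultures. The p-values therefore rest on spread between arrays, which may be technical, and not on known separate cultures. Where TC and S2101 were pooled, that spread includes any difference between the compounds. In that fit the variance of each gene was also drawn toward that of genes of similar signal (prior degrees of freedom 8.08, residual 2).

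In skeletal muscle, a voltage sensor in the transverse tubule membrane touches the ryanodine receptor of the sarcoplasmic reticulum and opens it mechanically, so that stored calcium reaches the sarcomeres. Inside the store calsequestrin holds calcium at low affinity, and SERCA pumps return it from the cytosol to end the contraction. Myotubes in culture build this machinery as they mature, using isoforms shared with the heart as well as those typical of skeletal muscle.

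RefSeq promoter sequences (GRCm38.p6) were found for 6 of the 10 members, Cacna1s, Casq1, Casq2, Jph2, Ryr1 and Atp2a1. Below are the 250 bases before the transcription start of 4 of them, 5′ to 3′ on the gene's strand. Ryr1 and Cacna1s are shown because their products touch each other yet their transcripts had unlike values, and Casq1 and Casq2 because they form an isoform pair. Capitals mark E-boxes, the CANNTG motif bound by myogenic bHLH factors such as myogenin, which reads the same on both strands. The windows lie at chr7:29125152-29125401 (minus strand, Ryr1), chr1:136052561-136052810 (plus strand, Cacna1s), chr1:172219896-172220145 (minus strand, Casq1) and chr3:102086165-102086414 (plus strand, Casq2).
Ryr1: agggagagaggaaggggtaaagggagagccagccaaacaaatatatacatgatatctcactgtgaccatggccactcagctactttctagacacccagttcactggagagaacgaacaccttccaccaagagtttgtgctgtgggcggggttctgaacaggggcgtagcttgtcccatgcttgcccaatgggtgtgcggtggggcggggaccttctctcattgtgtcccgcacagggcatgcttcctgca
Cacna1s: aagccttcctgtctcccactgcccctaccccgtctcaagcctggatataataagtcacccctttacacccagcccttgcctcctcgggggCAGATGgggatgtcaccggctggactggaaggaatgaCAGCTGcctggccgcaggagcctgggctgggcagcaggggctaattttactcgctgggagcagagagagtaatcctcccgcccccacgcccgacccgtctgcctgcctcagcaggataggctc
Casq1: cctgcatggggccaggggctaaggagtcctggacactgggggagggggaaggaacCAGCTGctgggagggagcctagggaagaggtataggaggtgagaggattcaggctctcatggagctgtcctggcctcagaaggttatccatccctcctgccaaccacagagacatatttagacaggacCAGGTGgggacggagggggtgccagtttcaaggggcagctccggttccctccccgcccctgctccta
Casq2: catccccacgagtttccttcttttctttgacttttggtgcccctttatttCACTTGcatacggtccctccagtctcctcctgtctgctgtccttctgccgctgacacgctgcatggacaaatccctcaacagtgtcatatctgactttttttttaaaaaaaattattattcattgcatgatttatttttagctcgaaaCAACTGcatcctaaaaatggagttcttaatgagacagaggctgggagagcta
The Ryr1 window held 0 E-boxes, and the other 3 windows held 2 each. Of 32851 promoter windows of the same length, 66.2% held at least 1. The form CAGCTG, present in 13.0% of all windows, stood 123 bases before the start of Cacna1s and 195 before that of Casq1. It also stood 55 bases before the start of Atp2a1, and 9 and 29 bases before the starts of both annotated Jph2 promoters, which overlap and hold the same motif. The form CAGGTG, or CACCTG on the other strand (17.2% of windows), stood 67 bases before the start of Casq1. Casq2 alone among the 6 genes had a match to the MEF2 motif, 69 bases before its start (2.92% of windows, both strands). Cacna1s alone had CATTCC, an MCAT element, on either strand (12.6% of windows), at 130 bases. These matches are letters in a window. The Ryr1 and Cacna1s windows were picked after their values were seen, and the contrast between those values was not tested. No link between a match and any value below was tested.

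The comparison asked whether genes of this machinery differed between cells differentiated with an LSD1 inhibitor and those given vehicle. Cacng1, Ryr1 and Atp2a2 rose, by 1.30- to 1.54-fold in mean signal, and the other 5 tested members did not pass the test. Of the 8 tested members, 3 (37.5%) were thus called higher, beside 4.28% of all genes tested, and 0 were called lower, beside 3.74%. Since the members were chosen with earlier results of these data known, these shares describe the list and are no independent test. The median difference of the 8 was 0.13, beside 0.014 over all genes tested, as log2(signal + 50), the scale of every difference below. Both inhibitor arrays lay above both vehicle arrays in 4 of the 8 and below them in 1, beside 27.6% and 23.4% of genes tested. In such bulk samples, fewer cells of a type and less RNA per cell cannot be told apart.

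Precision is limited by having 4 arrays in all. Median signals were 63.4 with TC, 72.2 with S2101, and 75.1 and 66.6 with vehicle, and the 3′ to 5′ ratio of Gapdh lay between 0.743 and 0.790 on the 4 arrays. The label of differentiating myoblasts was set against markers. All 8 myotube markers, such as Myog, Myh3 and Acta1, were tested and 0 passed (limma), with summed signals of 92551 with TC and 83837 with S2101, against 89591 and 90078 with vehicle. The sums hide unlike directions. Both inhibitor arrays lay below both vehicle arrays for Actc1 (-0.23) and Myh3 (-0.16), and above them for Des (0.18), while the other markers overlapped. Actc1 came close to the threshold (adjusted p = 0.0579, limma), with -0.18 for TC and -0.28 for S2101. All 4 markers of proliferating cells that had a probe set with a single gene symbol fell (sums 12039 and 10580.1, against 16283 and 16070.3). The listed marker Ccnb1 had no such probe set. Also lower were 3 of 5 fibroblast genes, Col1a1, Dcn and Postn (sums of the 5 were 44989 and 45859, against 53046 and 53081.5), and 1 of 2 tested smooth muscle genes, Tagln. The part of these changes in the members' values was not tested. Most of the fibroblast sums came from Col3a1 (30107 with TC and 30465 with S2101, against 33191 and 33332), which did not pass. Pdgfra did not pass either and lay the other way, with 372 and 417 against 351 and 341. The 4 cardiac muscle markers, of interest since Casq2, Atp2a2 and Jph2 also serve the heart, were dim on every array, with sums of 68.1 with TC and 125 with S2101, against 141 and 98.4 with vehicle. The 2 adipocyte and 2 endothelial genes with a single-symbol probe set were below the filter. The tested leukocyte marker Cd14 and neuronal marker Tubb3 did not pass.

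**Figure D1:**
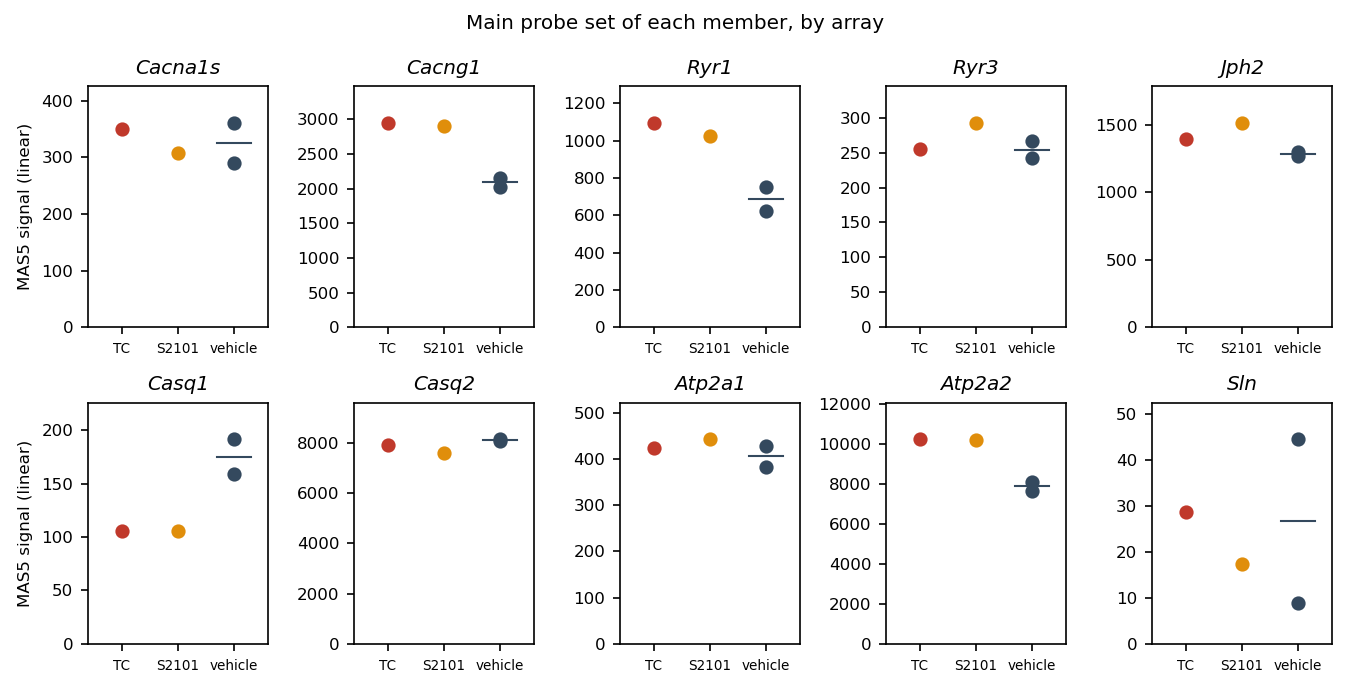
MAS5 signal (linear, from 0) of the main probe set of each member on the TC, S2101 and vehicle arrays; each point is 1 array and the bar is the mean of the 2 vehicle arrays. Cacng1, Ryr1 and Atp2a2 stand higher on both inhibitor arrays, Casq1 stands lower (106 with TC and 106 with S2101, against 159 and 191), and the Sln arrays scatter.

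The voltage sensor is the L-type calcium channel Cav1.1, whose pore subunit is encoded by Cacna1s and whose skeletal muscle gamma subunit is encoded by Cacng1. Cacng1 had signals of 2946 with TC and 2908 with S2101, against 2025 and 2157 on the vehicle arrays. Both inhibitor arrays lay above both vehicle arrays, and the gap between groups was wider than the gap within either. The difference was 0.48 ± 0.08 (SE; 95% interval 0.31 to 0.65; adjusted p = 0.00411, limma with Benjamini-Hochberg), a 1.40-fold higher mean signal. Cacna1s had signals of 350.4 with TC and 308 with S2101, against 361 and 291 on the vehicle arrays. Here the inhibitor arrays fell between the vehicle arrays, with a difference of 0.016 and an interval of -0.31 to 0.34 (adjusted p = 0.965, limma). That interval overlaps the interval of Cacng1. The log2 ratio of Cacng1 to Cacna1s signal was 2.90 with TC and 3.05 with S2101, against 2.34 and 2.69 with vehicle. Each inhibitor array exceeded the higher vehicle array by less than the vehicle arrays differed from each other, and the change was not tested. The level of such a ratio says nothing, since probes differ in brightness.

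Ryr1 encodes the main calcium release channel of skeletal muscle, which Cav1.1 opens by contact. Its main probe set had signals of 1096 with TC and 1028 with S2101, against 754 and 625 on the vehicle arrays. Both inhibitor arrays were higher than either vehicle array, although the vehicle arrays differed from each other by 0.25 on the log2 scale. The difference was 0.59 ± 0.11 (SE; 95% interval 0.35 to 0.84; adjusted p = 0.00882, limma), 1.54-fold in mean signal. Its other probe set was dimmer, with 203 with TC and 184 with S2101, against 180.3 and 105 with vehicle. There the S2101 array stood close to the higher vehicle array, and the difference was 0.37 with an interval of -0.23 to 0.96 that includes 0. With the mean of both probe sets the Ryr1 difference was 0.48 and its call ended (adjusted p = 0.100, limma). It also ended with no filter on dim genes (0.0675), where 0.786% of genes were called higher and Cacng1 was the only member called.

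Ryr3 encodes a second ryanodine receptor, present at low levels in developing muscle, where it adds to calcium release. Its main probe set had 255 with TC and 292 with S2101, against 266 and 242 with vehicle. The groups overlapped, and the difference was 0.089 (95% interval -0.24 to 0.42; adjusted p = 0.783, limma). The 2 dimmer Ryr3 probe sets, at mean signals of 54.0 and 38.3, differed by -0.14 and 0.21, again with overlapping groups. The log2 ratio of Ryr1 to Ryr3 signal was 1.91 with TC and 1.65 with S2101, against 1.35 and 1.21 with vehicle, so it was higher on both inhibitor arrays. The change of this ratio was 0.50, and it was not tested.

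Jph2 encodes junctophilin 2, which bridges the plasma membrane and the sarcoplasmic reticulum to form the junction. It had signals of 1397 with TC and 1514 with S2101, against 1297 and 1268 with vehicle. Both inhibitor arrays were above both vehicle arrays, but the difference of 0.18 ± 0.09 did not pass (SE; 95% interval -0.018 to 0.37; adjusted p = 0.273, limma). Its dimmer probe set, with 122 and 112 against 203 and 112, had the opposite sign at -0.28, with an interval of -0.93 to 0.37. Its vehicle array 1 stood apart from the other 3 arrays, and the interval contains the value of the main probe set. With the mean of both probe sets the difference was -0.052.

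The store itself is represented by the calsequestrins, of which Casq1 is the fast skeletal muscle form and Casq2 the form of heart, slow fibres and developing muscle. Casq2 had signals of 7903 with TC and 7598 with S2101, against 8148 and 8079 with vehicle. The inhibitor arrays were below the vehicle arrays by little, and the difference was -0.066 (95% interval -0.21 to 0.078; adjusted p = 0.612, limma). The interval is narrow enough to leave out a change of the size seen in Cacng1. Casq1, with 106 with TC and 106 with S2101 against 159 and 191 with vehicle, was the member with the lowest ratio of inhibitor to vehicle mean (0.605). The inhibitor arrays agreed closely and both were lower. Its mean signal of 140.4 was under the filter, so it had no test among the 9097 genes. In the fit over all 18193 genes its difference was -0.53 ± 0.20 (SE; 95% interval -1.003 to -0.050), with an unadjusted p of 0.0353 and an adjusted p of 0.306 (limma); 0.676% of genes were called lower there. With averaged probe sets the median gene was dimmer, and Casq1 entered the test and passed it at an adjusted p of 0.0482 (limma). That setting also changed the values of other genes and the variance fit, so the call cannot be put down to the filter. The log2 ratio of Casq2 to Casq1 signal was 5.67 with TC and 5.62 with S2101, against 5.30 and 5.07 with vehicle.

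Calcium is returned to the store by SERCA pumps, SERCA1 from Atp2a1 in fast fibres and SERCA2 from Atp2a2 in slow fibres, heart and, in another splice form, most other cells. Atp2a2 had signals of 10254 with TC and 10217 with S2101, against 8106 and 7686 with vehicle. The inhibitor arrays were nearly equal and stood above both vehicle arrays. The difference was 0.37 ± 0.07 (SE; 95% interval 0.23 to 0.52; adjusted p = 0.0063, limma), 1.30-fold in mean signal. Atp2a1 had 425 with TC and 442 with S2101, against 429 and 382 with vehicle. Its groups overlapped, with a difference of 0.088 and an interval of -0.18 to 0.36 whose upper end lies just under the value of Atp2a2 (adjusted p = 0.734, limma). The log2 ratio of Atp2a2 to Atp2a1 signal was 4.44 with TC and 4.38 with S2101, against 4.09 and 4.16 with vehicle.

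Atp2a2 had 6 probe sets, more than any other member. In 5 of them both inhibitor arrays lay above both vehicle arrays, with differences of 0.10 to 0.43. The second brightest had 6559 with TC and 7164 with S2101, against 5498 and 4997 with vehicle, a difference of 0.38 that is close to that of the main probe set. The third had 3634 and 2874, against 2253 and 2511, so its TC array stood well above its S2101 array. A probe set at 581 with TC and 604 with S2101, against 576 and 524 with vehicle, differed by only 0.10. The dimmest had 44.8 and 43.4, against 95.8 and 51.8, and differed by -0.37 with an interval of -0.98 to 0.23. Averaged over all 6 the difference was 0.21 and the call ended (adjusted p = 0.180, limma). It also ended with no filter (0.0536), when the variance model had no intensity trend (0.0640), and without vehicle array 2 (0.0622).

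**Figure D2:**
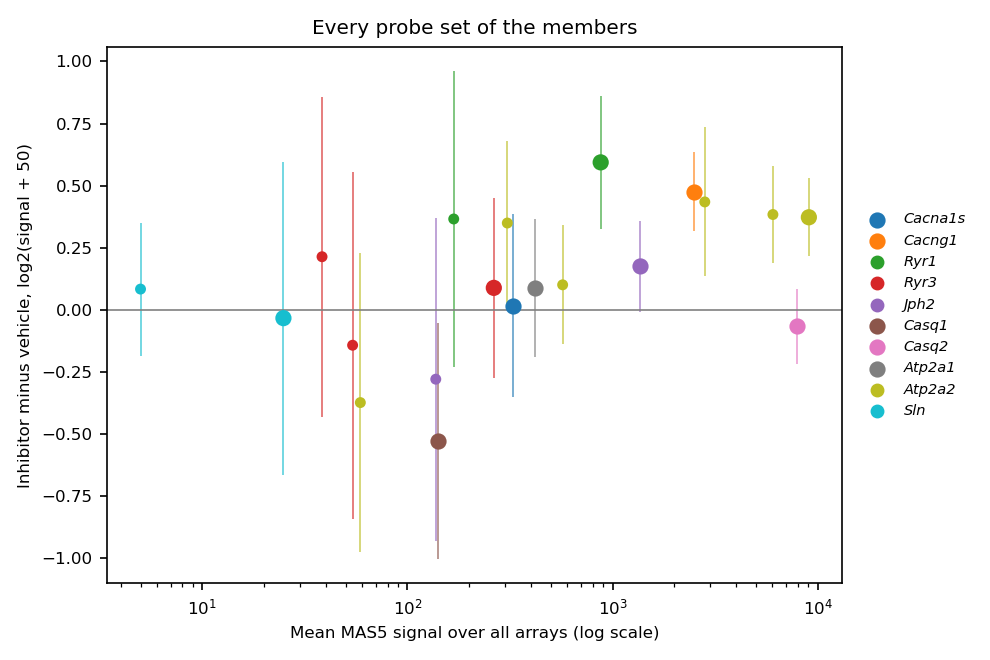
Difference between inhibitor and vehicle arrays, as log2(signal + 50), against mean MAS5 signal (log axis) for all 20 probe sets of the members; large points are the main probe sets and lines are 95% intervals of the fit over every probe set. The widest intervals belong to dim probe sets, and the 3 brightest Atp2a2 probe sets lie between 0.37 and 0.43.

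Over all 20 probe sets, both inhibitor arrays lay above both vehicle arrays in 10 and below them in 3, beside 18.8% and 22.3% of all probe sets with a single symbol. In the fit over every such probe set 0 of the 20 passed (limma), beside 0.306% called in all, and 7 had an unadjusted p under 0.05, as did 11.9% of all probe sets in that fit. The lowest adjusted p of the 20 was that of Cacng1, at 0.0664 (limma).

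Sln encodes sarcolipin, a small membrane protein that inhibits SERCA pumps. Its brighter probe set had signals of 28.8 with TC and 17.4 with S2101, against 44.5 and 8.81 with vehicle, and the vehicle arrays lay on either side of both inhibitor arrays. The other had 3.86 and 9.40, against 3.34 and 3.39. All 8 values are under the offset of 50, so no change could be measured for this gene and no fold is given.

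Each compound was also set against vehicle alone, with 1 array assumed to vary like the vehicle pair and 1 residual degree of freedom, so these calls have no replicate check within a compound. With TC, Ryr1 rose by 0.64 ± 0.13, Cacng1 by 0.49 ± 0.09 and Atp2a2 by 0.38 ± 0.07 (SE; adjusted p = 0.0201, 0.00933 and 0.0130, limma), beside 4.36% of genes called higher; that comparison had 397 higher and 347 lower calls, or 500 and 242 with median centring. With S2101, Ryr1 rose by 0.55 ± 0.13, Cacng1 by 0.47 ± 0.09 and Atp2a2 by 0.37 ± 0.07 (SE; adjusted p = 0.0401, 0.0125 and 0.0154, limma), beside 3.37% called higher. Both compounds share the vehicle arrays, so nothing is read from the likeness of these values. All 3 calls ended for either compound with no filter on dim genes and without an intensity trend, and that of Ryr1 with S2101 ended with quantile normalization (adjusted p = 0.0501, limma). With averaged probe sets the calls of Ryr1 (adjusted p = 0.0601 with TC and 0.150 with S2101, limma) and Atp2a2 (0.213 and 0.260) ended too.

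TC minus S2101 was 0.089 for Ryr1 (95% interval -0.26 to 0.44), 0.019 for Cacng1 (-0.20 to 0.24) and 0.0052 for Atp2a2 (-0.18 to 0.19). Among the 8 tested members 0 passed for this difference, beside 0.033% of all genes called (limma). An unadjusted p under 0.05 was held by 0 of the 8, and the share of all genes at that level was not counted. The widest point differences were -0.17 for Ryr3 (-0.63 to 0.29) and 0.16 for Cacna1s (-0.30 to 0.62). These intervals do not show that the compounds act alike, and the labels give no dose for either.

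**Figure D3:**
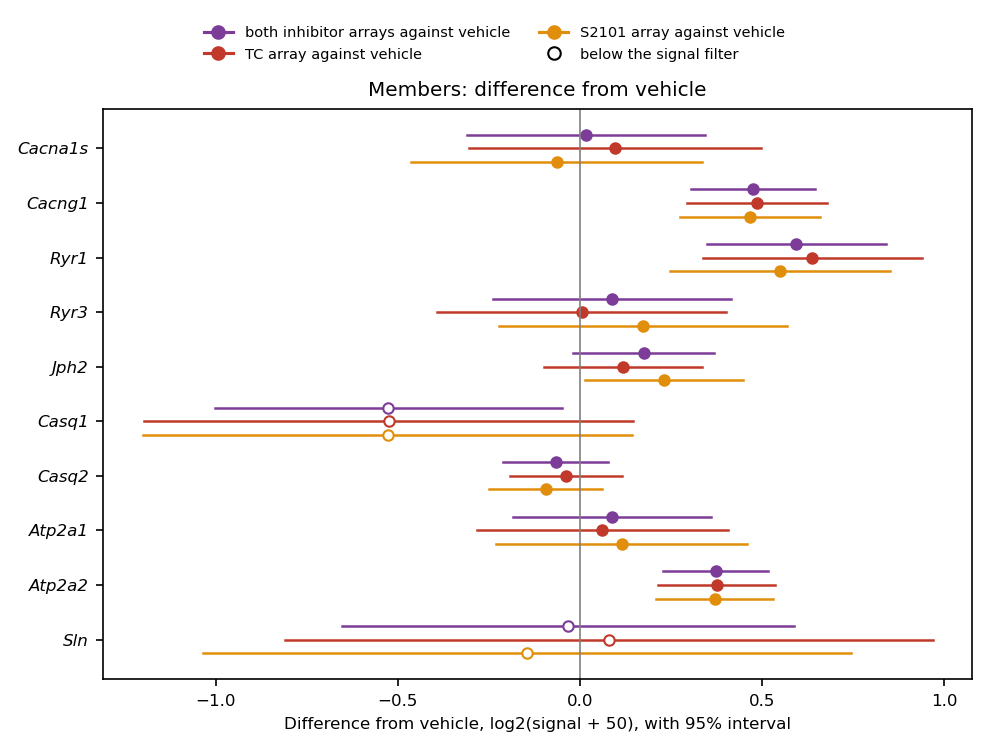
Difference from vehicle, as log2(signal + 50), with 95% intervals for each member: both inhibitor arrays together, the TC array and the S2101 array. Intervals of Cacng1, Ryr1 and Atp2a2 lie above 0 in all 3 comparisons; open points are Casq1 and Sln, fitted without the filter on dim genes.

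Neighbouring genes of calcium handling, in 4 lists, gave 50 tested genes of 67 on the array with a single symbol. Of these 50, 6 rose, 2 fell and 42 did not pass, that is 12% and 4% beside 4.28% and 3.74% of all genes. Their median difference was 0.022, close to that of all genes tested. These lists too were chosen with earlier results of these data known, so their shares are descriptive.

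The voltage sensor and triad partners had 16 tested genes, of which 2 rose, 1 fell and 13 did not pass, and their median was 0.049. Trdn, encoding triadin, which ties calsequestrin to the ryanodine receptor, had 529.7 with TC and 596 with S2101, against 411 and 229 with vehicle. Its difference was 0.77 ± 0.20 (SE; adjusted p = 0.0457, limma), but its vehicle arrays lay far apart. The call ended without vehicle array 2, without the TC array and without the S2101 array. It also ended with no filter, without an intensity trend and with averaged probe sets. Trdn thus kept its call in 5 of 11 alternatives. In its brightest other probe set, with 379 with TC and 294 with S2101 against 341 and 256 with vehicle, the groups overlapped. Tmem38b, encoding the counter-ion channel TRIC-B of the endoplasmic and sarcoplasmic reticulum, had 2523 and 2490.5, against 1784 and 2118, a difference of 0.36 ± 0.09 (SE; adjusted p = 0.0423, limma). Both of its other bright probe sets had differences of 0.32 and 0.35. A dim probe set, with 55.6 and 75.1 against 93.3 and 71.6, had the opposite sign (-0.20). The call of Tmem38b ended in 6 of 12 alternatives, among them averaged probe sets and leaving out vehicle array 1, TC or S2101. Cav3, the muscle caveolin of developing transverse tubules, fell, with 193 and 215 against 405 and 403, a difference of -0.84 ± 0.14 (SE; adjusted p = 0.00461, limma). Its inhibitor and vehicle arrays each agreed closely within their group. The call of Cav3 held in 10 of 11 alternatives and ended with no filter (0.0565). The other voltage sensor subunits Cacna2d1 (0.050) and Cacnb1 (0.049) and the coupling adaptor Stac3 (0.022) did not pass. Jsrp1, encoding the triad protein JP-45, stood at 0.31 ± 0.08 (SE; adjusted p = 0.0512, limma); these 4 were named after their values were seen.

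Among 13 store proteins and pump regulators, 2 rose, 1 fell and 10 did not pass, and the median was -0.074. Hrc, a histidine-rich calcium-binding protein of the sarcoplasmic reticulum, had 1735 with TC and 1649 with S2101, against 1283 and 1134 with vehicle. Both inhibitor arrays were well above both vehicle arrays, a difference of 0.47 ± 0.09 (SE; adjusted p = 0.0111, limma). The call of Hrc held in 10 of 12 alternatives and ended with no filter and without vehicle array 2. Mrln, encoding myoregulin, a micropeptide that inhibits SERCA in skeletal muscle, had 739 and 655, against 436 and 518. It rose by 0.51 ± 0.12 (SE; adjusted p = 0.0315, limma), and its call held in 7 of 11 alternatives. That call ended with no filter, without an intensity trend, without vehicle array 1 and without the TC array. Rcn1, encoding reticulocalbin 1, a calcium-binding protein of the endoplasmic reticulum lumen, fell, with 5091 and 5026 against 6649 and 7101. Its difference was -0.44 ± 0.07 (SE; adjusted p = 0.0037, limma), and the call held in 11 of 12 alternatives. The exception was the average with its dim second probe set (adjusted p = 0.250, limma). In 9 of the 13 both inhibitor arrays lay below both vehicle arrays (69.2%, beside 23.4% of all genes tested), though of these 9 Rcn1 alone passed.

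Among 9 genes of store-operated entry, IP3 receptors and export, 2 rose and 7 did not pass, and the median was 0.020. Slc8b1, which encodes the exchanger that moves calcium out of mitochondria rather than out of the cell, had 1265 with TC and 1386 with S2101, against 1023 and 956 with vehicle (difference 0.40 ± 0.09, SE; adjusted p = 0.0260, limma). Itpr3, an IP3-gated release channel, had 1489 and 1589, against 1149 and 1238 (0.35 ± 0.09, SE; adjusted p = 0.0372, limma). In both, each inhibitor array was higher than each vehicle array. The call of Slc8b1 ended without vehicle array 2 or without S2101, and that of Itpr3 without either vehicle array or S2101. Both calls also ended with no filter and without an intensity trend. They held in 8 of 12 alternatives for Slc8b1 and 7 of 12 for Itpr3. The store calcium sensor Stim1 had 172 and 246, against 256 and 229, and did not pass (-0.19); its other probe set had the opposite sign (0.17). Of 12 genes of calcium sensing and mitochondrial uptake 0 passed (limma), and 0 had an unadjusted p under 0.05, beside 22.3% of all genes tested. The largest differences in main probe sets were those of the kinase Camk2a (0.26), the mitochondrial uniporter Mcu (0.22) and the transcription factor Nfatc4 (0.20), and the median was 0.027. Each of these genes has dimmer probe sets of the opposite sign, at -0.57, -0.63 and -0.28 for Camk2a, -0.64 and -0.027 for Nfatc4 and -0.056 for Mcu, while the other dimmer probe sets of Camk2a (0.27 and 0.59) and Nfatc4 (0.23) had the same sign. With S2101 alone Mcu passed, at 0.39 ± 0.09 (SE; adjusted p = 0.0375, limma), against 0.039 with TC (0.858); TC minus S2101 did not pass (adjusted p = 0.452, limma).

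**Figure D4:**
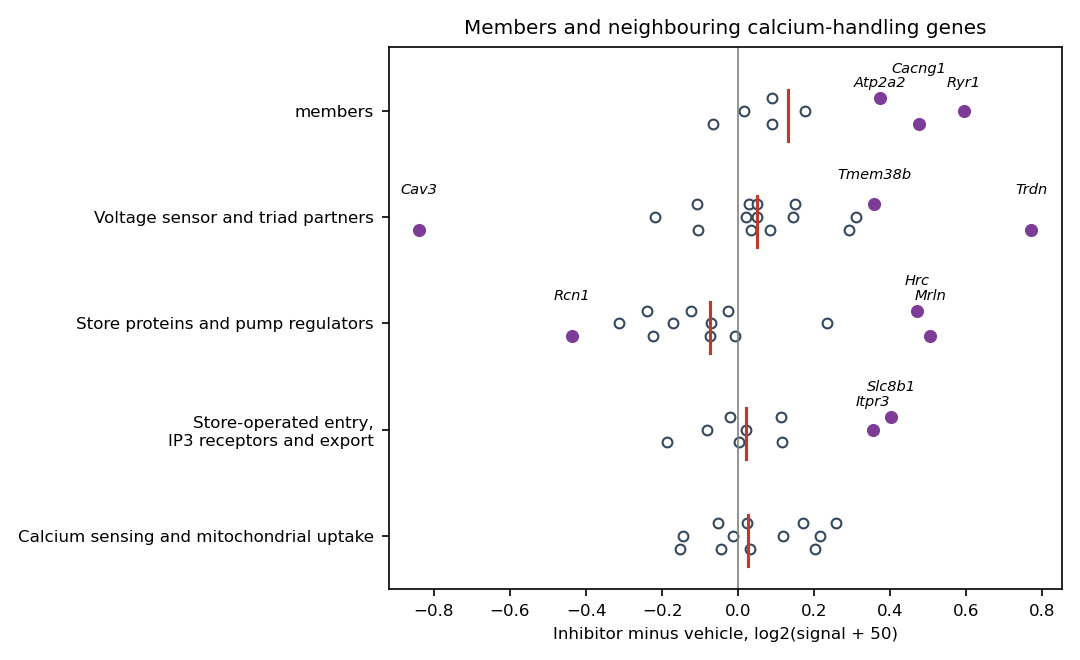
Difference between inhibitor and vehicle arrays, as log2(signal + 50), for the tested members and for 4 lists of neighbouring genes; filled points passed the test and are named, open points did not, and the red bar is each list's median. The called members lie at 0.37 to 0.59, and the called neighbours run from -0.84 (Cav3) to 0.77 (Trdn).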

How the data were processed

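Expression was measured on Affymetrix arrays, 1 per sample; per the labels' protocols, 250 ng of total RNA went into each biotin-labelled cRNA. The deposited intensity values are MAS5 signals on a linear scale, made by the authors with MAS5 and Affymetrix Expression Console, per the submitters' processing notes; no version is stated there. Each array had a 2% trimmed mean of 500.0. Gene symbols came from the platform annotation of the 45101 probe sets.

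The deposited signals were analysed as log2(signal + 50), where 50 is 10% of the trimmed mean. One probe set a gene, the brightest, was used, and genes no dimmer in mean signal than the median gene entered limma 3.58.1 in R 4.3.3 (eBayes, trend = TRUE). Calls were made at a Benjamini-Hochberg adjusted p below 0.05. TC and S2101 were taken as 2 arrays of LSD1 inhibition (2 residual degrees of freedom, prior 8.08); a fit with 3 groups gave each compound (1 residual degree of freedom, prior 8.37). Scripts were tested on simulated data. Named neighbours were those past the test, or the 3 largest differences where fewer than 3 passed. Members and lists were chosen with earlier results of these data known. Alternatives were other offsets (2% and 50%), filters (none, 75th percentile), no trend, averaged probe sets, median centring, quantile normalization and leaving out each array. No genome was used; promoters came from RefSeq (GRCm38.p6).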

Additional observations from a re-analysis of the deposited data

How the results depend on the processing

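Between inhibitors and vehicle, 729 genes passed; 266 did with no filter on dim genes, 457 with a filter at the 75th percentile, 423 without an intensity trend and 468 with averaged probe sets, and between 501 and 749 when 1 array was left out. Members past the test numbered 3; 1, Cacng1, passed with no filter, and 2 to 3 did with an array left out. Neighbouring genes past the test numbered 8, against 1 with no filter, 5 with the stricter filter, 3 without a trend, 5 with averaged probe sets and 4 to 7 with an array left out. For TC, 744 genes passed; 12 genes and 0 members did with no filter, 83 and 0 without a trend, and 1 member with averaged probe sets. For S2101, 610 genes passed; 8 genes and 0 members did with no filter, 112 and 0 without a trend, and 1 member with averaged probe sets. The cause was not tested. Cacng1 kept its call between inhibitors and vehicle in 12 of 12 alternatives (differences 0.43 to 0.52). The fit over every probe set, where Cacng1 did not pass (adjusted p = 0.0664, limma), was not among them.

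Signs turned only for members that did not pass, and in 1 dim probe set of Atp2a2. Jph2 stood at -0.052 with averaged probe sets (-0.057 for TC and -0.046 for S2101), Casq2 with TC at 0.0088 with median centring, and Cacna1s ran from -0.12 without vehicle array 2 and -0.064 without the TC array to 0.15 without vehicle array 1. Other probe sets gave -0.28 for Jph2, -0.14 for Ryr3, 0.084 for Sln and -0.37 for Atp2a2. Of 212 member values under the other settings, 182 kept their direction and their side of the threshold. That count includes members that were not called and stayed so. Between inhibitors and vehicle, the call of Ryr1 held in 9 of 11 settings and that of Atp2a2 in 8 of 12. Of 10 values from other probe sets, 1 kept its direction and its side of the threshold. They came from the fit over every probe set, where the main probe sets of Cacng1, Ryr1 and Atp2a2 did not pass either. The side of the threshold there thus says little about agreement between probe sets. Direction alone was kept by 4 of the 5 other probe sets of Atp2a2, 1 of 1 of Ryr1 and 1 of 2 of Ryr3, and was turned in those of Jph2 and Sln. No paired analysis was possible because the inhibitor numbers in the labels count compounds, so no replicate number is shared. Detection calls were not used here, and values under the offset of 50 carry little information.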
